A study of Mus musculus with 8 samples.

Results

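Solute carriers move small molecules across membranes, and 126 of their genes outside the mitochondrial Slc25 family were measured here in macrophages of mouse visceral fat. They were chosen from the 41388 genes of the deposited tables as protein-coding genes with an Slc symbol, without Slc25, and with a mean of at least 5 deposited CPM, the count scaled to a fixed library total, over the 8 libraries. Of 324 protein-coding Slc genes outside Slc25, 139 reached that mean, and 13 of these were left out by name, among them carriers of phosphate, osmolytes, lactate, iron and cystine. The other 185 lay under 5 CPM, and 51 of those were at 0 in every library. The choice used the mean level over both groups and is given as a description. Just inside the threshold lay Slc22a17 with a mean of 5.56 CPM, Slc10a1 with 5.58 and Slc39a7 with 5.72, and just outside lay Slc18a2 with 4.78, Slc39a12 with 4.57 and Slc22a23 with 4.45. The 126 genes belong to 39 families and were grouped by the substrate known for the gene or its family: 21 for amino acids and peptides, 21 for metals and heme, 20 for nucleotide sugars and acetyl-CoA, 19 for inorganic ions, 17 for organic ions, carboxylates and fatty acids, 14 for nucleosides, vitamins, choline and urea, and 10 for sugars and sugar phosphates. The remaining 4 genes carry a carrier's name and are not themselves carriers.

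The macrophages came from epididymal white adipose tissue, the visceral fat beside the epididymis, of 4 male mice of the MitoFat strain fed normal chow, in which adipocytes alone are made to carry a mitochondrial reporter called mtD2. Live cells positive for CD45, F4/80 and CD64 were sorted into those without (mtD2-) and with (mtD2+) the reporter, so that each mouse gave a pair of libraries and the mtD2+ cells are macrophages in which the adipocyte reporter was detected. Both groups share strain, sex, diet and sort. For the driver of the reporter, the age of the mice and the number of sorted cells, nothing is stated in the sources used here. The 4 libraries of a group come from separate mice.

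Solute carriers fall into families by sequence, and a family often shares a kind of substrate. Carriers of the plasma membrane bring in amino acids, vitamins, metals and ions, those of lysosomes and endosomes return the products of digestion or set the pH, and those of the endoplasmic reticulum and Golgi bring in the activated sugars from which glycans are built. Macrophages digest what they engulf, so that lysosomal export of amino acids, nucleosides, sugars and metals is part of how these cells work.

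Libraries held 18462287 to 27464399 counts. Of the sort markers, Ptprc, which encodes CD45, had a log2 fold change (mtD2+ over mtD2-) of 0.02 (SE 0.11), Adgre1, which encodes F4/80, fell by 0.55 (SE 0.12, adjusted p = 0.0336), and Fcgr1, which encodes CD64, had −0.44 (SE 0.11, adjusted p = 0.0554). Of the markers of fibroblasts and adipocyte precursors 7 of 12 fell in mtD2+, with a summed level of 826 to 1275 CPM in mtD2- against 229 to 284 in mtD2+. Monocyte markers summed to 519 to 647 against 269 to 363 CPM, with Ccr2 passing among 6, and B cell markers to 34.1 to 61.6 against 19.2 to 32.2 CPM, with Cd79b passing among 4 tested. Adipocyte markers had a summed level of 61.6 to 88.7 CPM in mtD2- and 59.0 to 155 in mtD2+, higher in 3 of 4 mice, and none of the 7 tested passed (median log2 fold change 0.58, all positive). Erythroid markers summed to 49.3 to 453 against 27.6 to 171 CPM, with none of 4 tested passing (median −0.74). The 8 macrophage markers summed to 11483 to 12602 against 9890 to 11581 CPM, with Mertk rising (0.51, SE 0.11, adjusted p = 0.0341) and Adgre1 falling. Their median log2 fold change was −0.06, with 4 positive and 4 negative. Of 12 genes that respond to tissue dissociation 3 rose, and none of the 6 neutrophil markers had enough counts to be tested, with Ly6g at 0 in every library. The mtD2- library of mouse 4 stood furthest from the others of its group, with a chi-square per degree of freedom of 121 to 157 against 40.6 to 42.9 among the other 3. In such bulk samples, fewer cells of a type and less RNA per cell cannot be told apart.

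Of the 126 carriers, 4 rose in mtD2+ (3.17%, against 3.72% of all 13933 genes tested) and 2 fell (1.59%, against 1.78%), with a threshold of 0.05 on the Benjamini-Hochberg adjusted p of edgeR's quasi-likelihood test with the mouse as a block. The 6 called carriers are 4.76% of the members, below the 5.5% of all tested genes and the 7.54% of tested genes with a mean of at least 5 CPM, and all 126 passed the filter on low counts. The share of calls among these 126 carriers is thus near that of other genes. It does not cover the 13 carriers left out by name, of which 4 rose and none fell. Without mouse 1 the counts were 3 higher and 1 lower, without mouse 2 or mouse 3 they were 1 and 1, without mouse 4 they were 2 and 1, and without the block 1 and 1. Calls over all tested genes fell as well, from 767 to 215, 273, 166 and 555 without mice 1 to 4. Without the block they fell to 218. Slc15a2, Slc26a11, Slc23a3 and Slc35f5 rose, and Slc43a3 and Slc35c2 fell. An unadjusted p under 0.05 was reached by 40 carriers (31.7%), 18 of them higher and 22 lower, where the shares were 22.8% of all genes and 28.4% of those with a mean of at least 5 CPM. In 18 carriers (14.3%) the 4 mtD2+ values did not overlap the 4 mtD2- values, against 12.6% of all genes and 14.7% of those with at least 5 CPM. Their median log2 fold change was −0.02, beside −0.05 for tested genes with at least 5 CPM, with 59 positive and 67 negative.

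**Figure D1:**
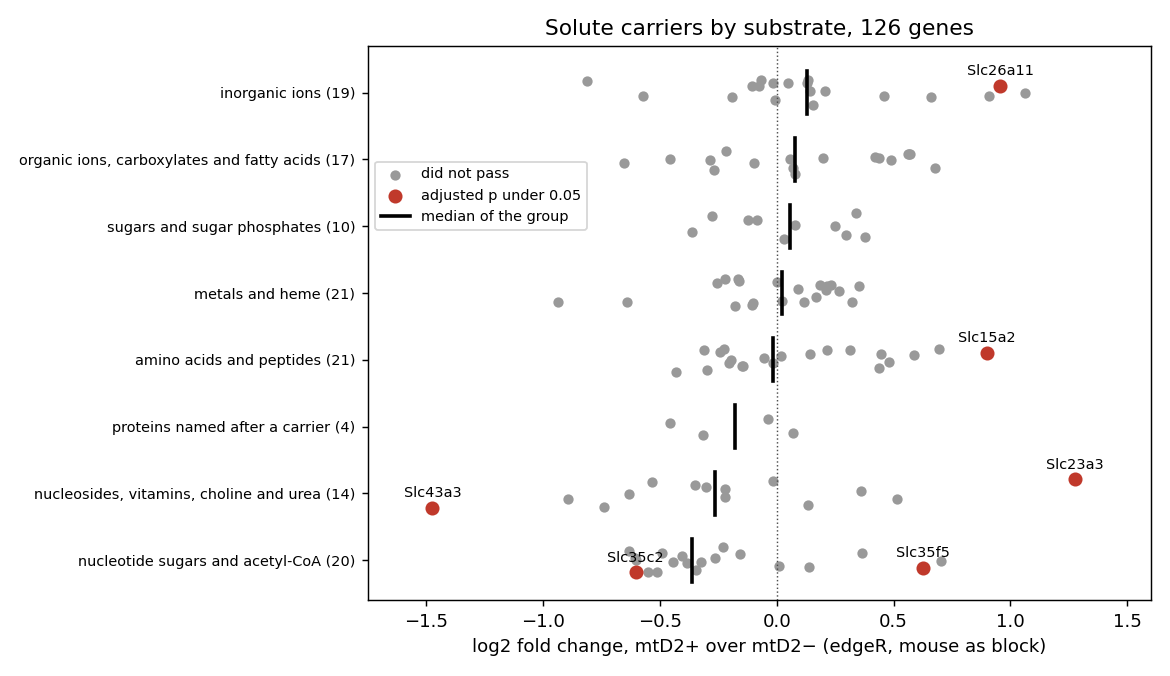
The log2 fold change of each of the 126 carriers (horizontal axis, mtD2+ over mtD2−) is drawn in its substrate group (vertical axis, with the number of genes), with red points for the 6 that passed the test and a black bar for the group's median. The lowest medians are those of nucleotide sugars and acetyl-CoA (−0.36), of nucleosides, vitamins, choline and urea (−0.26) and of the 4 proteins named after a carrier (−0.18), the other medians lie between −0.02 and 0.13, and the called genes lie in 4 groups.

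The summed level of all 126 carriers was 5406 ± 237 CPM (SD, n = 4) in mtD2- and 5515 ± 301 CPM in mtD2+, or 0.541% and 0.552% of all counts, and was higher in mtD2+ in 2 of 4 mice. This sum uses deposited CPM without edgeR's scaling factors, and the count of mice depends on that choice. Per length, in deposited RPKM, which is CPM divided by gene length in kilobases, the most abundant was Slc3a2, the heavy chain of the CD98 amino acid carriers, at 149 ± 23.2 RPKM in mtD2- and 194 ± 28.6 in mtD2+. By the mean of all libraries it was followed by Slc7a8, which encodes a light chain that pairs with it, at 69.0 ± 14.3 and 81.8 ± 13.0 RPKM. The zinc importer Slc39a1 had 72.0 ± 17.9 and 57.4 ± 12.2, the endosomal sodium-proton exchanger Slc9a9 had 47.8 ± 11.5 and 61.6 ± 4.89, and the nucleoside carrier Slc29a1 had 49.4 ± 4.66 and 52.1 ± 5.55 RPKM. The mean ± SD ranges of these 3 overlapped in mtD2+. In mtD2- the range of Slc9a9 overlapped those of Slc39a1 and Slc29a1, while Slc3a2 lay above every other carrier in both groups.

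**Figure D2:**
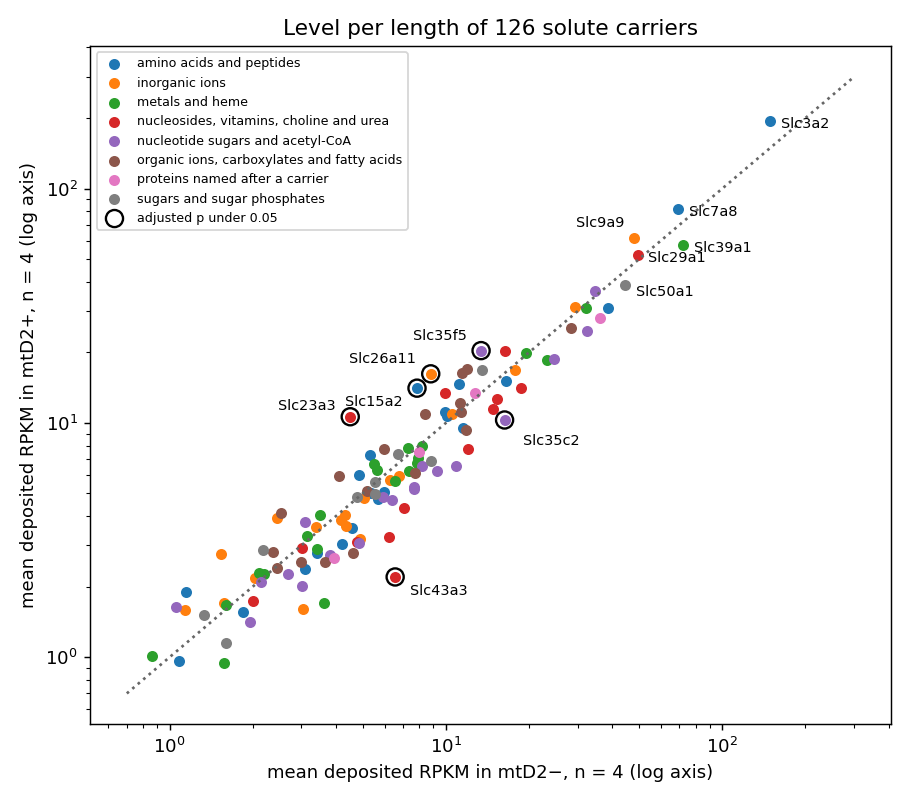
Each point is a carrier, with its mean deposited RPKM in mtD2− (horizontal, log axis, n = 4) and in mtD2+ (vertical, log axis, n = 4), coloured by substrate group, and the dotted line marks equal levels. Slc3a2 stands at the upper right with 149 and 194 RPKM, and the circled called genes Slc23a3, Slc26a11 and Slc15a2 lie above the line and Slc43a3 and Slc35c2 below it.

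Of the 21 carriers of amino acids and peptides, 1 rose, none fell and 20 did not pass. The gene that rose was Slc15a2 (ENSMUSG00000022899), which encodes a proton-coupled carrier of small peptides and lies on the minus strand of chromosome 16 from 36750178 to 36784962 (GRCm38). Its promoter is shown with those of Slc35c2 and Slc35f5, called carriers of a shared family that moved in opposite directions. The sequences are the 250 bases before the RefSeq start on GRCm38.p6, read 5′ to 3′ on the gene's strand, and capitals mark GC boxes, the letters GGGCGG or the reverse complement CCGCCC. They lie at chr16:36784963-36785212 (minus strand), chr2:165287839-165288088 (minus strand, 31 bases off the deposited start of that gene) and chr1:125560345-125560594 (plus strand).
Slc15a2: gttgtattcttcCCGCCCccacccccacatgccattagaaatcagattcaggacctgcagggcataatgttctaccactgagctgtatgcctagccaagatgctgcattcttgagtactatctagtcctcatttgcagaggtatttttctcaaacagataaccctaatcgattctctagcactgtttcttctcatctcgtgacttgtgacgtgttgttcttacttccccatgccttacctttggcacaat
Slc35c2: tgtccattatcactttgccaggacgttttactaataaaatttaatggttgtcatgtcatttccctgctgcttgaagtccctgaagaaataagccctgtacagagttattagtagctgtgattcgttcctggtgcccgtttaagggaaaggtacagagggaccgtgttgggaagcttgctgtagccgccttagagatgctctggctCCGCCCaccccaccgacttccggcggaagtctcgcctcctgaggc
Slc35f5: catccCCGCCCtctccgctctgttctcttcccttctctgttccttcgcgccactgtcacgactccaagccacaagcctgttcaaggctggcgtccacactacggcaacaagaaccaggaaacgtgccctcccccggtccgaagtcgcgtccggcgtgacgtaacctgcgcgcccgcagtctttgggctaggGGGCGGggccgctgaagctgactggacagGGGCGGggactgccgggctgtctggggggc
The Slc35f5 window holds 3 GC boxes, and those of Slc15a2 and Slc35c2 hold 1 each. RefSeq promoters were matched for 95 of the 126 carriers, and 53 of them (55.8%) held a GC box on either strand, against 60.9% of 7564 genes with at least 5 CPM and 32.7% of all 32851 promoters. The letters CACGTG, the E-box, stood in 11 of the 95 (11.6%), against 9.003% and 6.02%. The fourth called gene with a RefSeq promoter, Slc23a3, held neither in its window. A match is only a run of letters, and no binding was measured here.

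In mtD2- cells Slc15a2 stood at 82.9, 62.3, 43.7 and 35.6 CPM in mice 1 to 4 (CPM from here on is scaled by edgeR's TMM factors), and in mtD2+ cells at 161, 105, 93.9 and 61.4 CPM. Mouse 1 was highest and mouse 4 lowest in both populations, so that the group ranges overlapped while every mouse was higher in mtD2+. Slc15a2 rose 1.87-fold, from 56.1 ± 21.1 to 105 ± 41.5 CPM (SD, n = 4), a difference of 0.90 on the log2 scale (SE 0.11, adjusted p = 0.00481). The call held when any 1 mouse was left out (0.84 to 0.95) and was lost without the mouse as a block (0.91, adjusted p = 0.152). The other peptide carriers of the family, named outside the naming rule, were the lysosomal histidine and peptide carriers Slc15a3 (0.22, SE 0.14, adjusted p = 0.411) and Slc15a4 (−0.02, SE 0.17, adjusted p = 0.966). Exons of Slc15a3 share 28.1% of their bases with Tmem132a on the other strand, and the sources used here do not say whether the counting used strand.

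Slc3a2 stood at 397, 377, 379 and 589 CPM in mtD2- and at 630.2, 579.6, 654 and 479 CPM in mtD2+. It was higher in mtD2+ in mice 1, 2 and 3 and lower in mouse 4, whose mtD2- library had the highest value of its group. The log2 fold change was 0.45 (SE 0.18, adjusted p = 0.175), and without mouse 4 it was 0.69 (adjusted p = 0.0111). Its light chains, which pair with Slc3a2 at the plasma membrane, had values of both signs. Slc7a8, a carrier of large neutral amino acids, went from 304, 274, 295 and 209 CPM to 348, 369, 364 and 264 CPM and was higher in all 4 mice (0.32, SE 0.10, adjusted p = 0.108). Other light chains among the 126, named outside the rule for their partner, were the leucine and tryptophan exchanger Slc7a5 (−0.30, SE 0.28, adjusted p = 0.573), and Slc7a6 (−0.23, SE 0.30, adjusted p = 0.702) and Slc7a7 (−0.24, SE 0.12, adjusted p = 0.256), which exchange cationic for neutral amino acids. Slc7a5 was low, at 7.20 to 15.5 CPM in mtD2- and 6.25 to 12.8 in mtD2+.

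**Figure D3:**
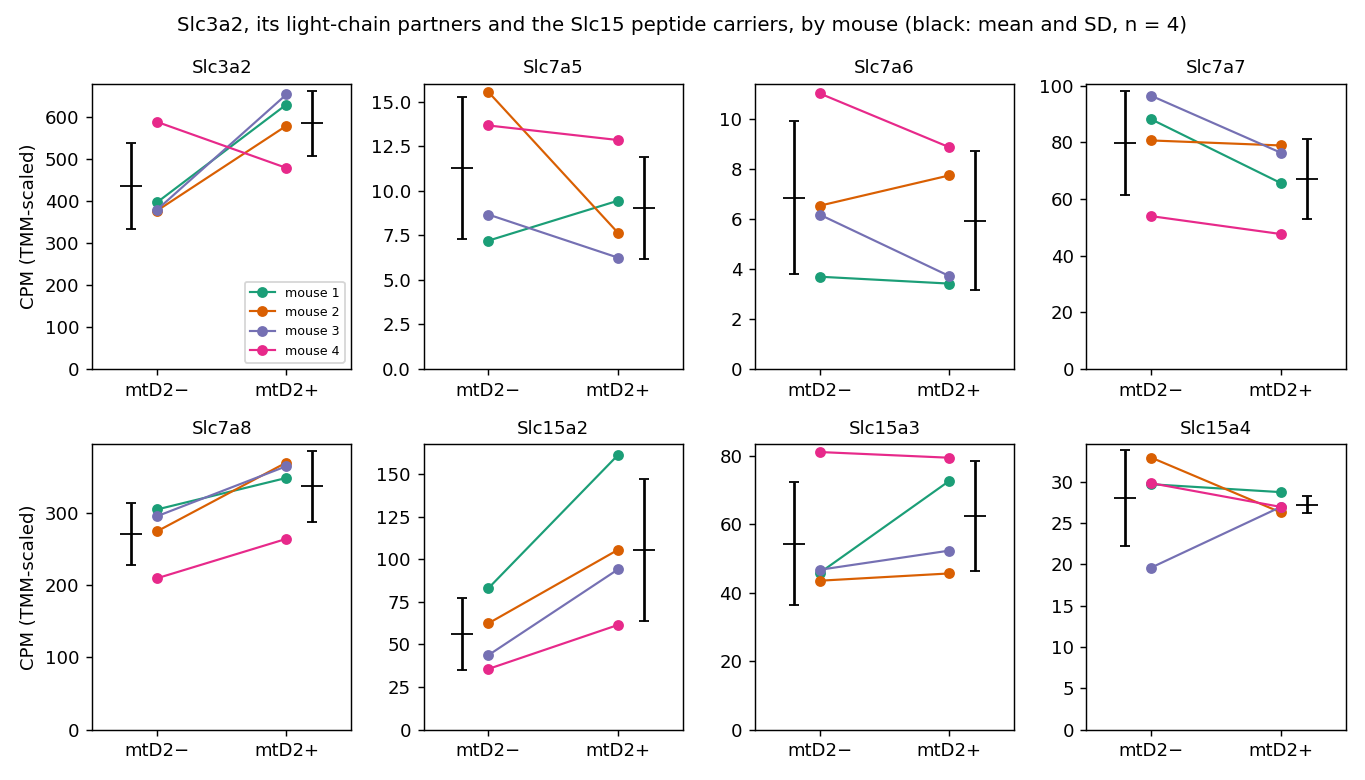
TMM-scaled CPM (vertical axes, from 0) of Slc3a2, its partners Slc7a5, Slc7a6, Slc7a7 and Slc7a8 and the peptide carriers Slc15a2, Slc15a3 and Slc15a4 in both populations, with 1 coloured line a mouse and the mean and SD (n = 4) in black. All 4 lines go up for Slc15a2 and Slc7a8, and for Slc3a2 mouse 4 goes down from 589 to 479 CPM while the others go up.

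Slc38a7, a lysosomal glutamine exporter, stood at 56.8, 40.9, 32.5 and 52.3 CPM in mtD2- and 64.2, 49.2, 49.96 and 84.8 CPM in mtD2+ (0.44, SE 0.14, adjusted p = 0.0991). It was higher in all 4 mice, with overlapping groups. The group's summed level was higher in mtD2+ in 4 of 4 mice, at 1514 ± 55.0 against 1725 ± 161 CPM of library totals, and without Slc3a2 in 3 of 4, at 1074 ± 114 against 1151 ± 79.8 CPM. These sums are not scaled by TMM, and both counts of mice depend on the scaling. The median log2 fold change of the 21 genes was −0.02, with 10 positive and 11 negative, so that the higher sum rests on the abundant members.

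Of the 19 carriers of inorganic ions 1 rose, none fell and 18 did not pass, with a median of 0.13. Slc26a11 (ENSMUSG00000039908), an anion exchanger that carries sulfate and chloride, lies on the plus strand of chromosome 11 from 119355557 to 119381079. It stood at 37.3, 22.2, 36.8 and 28.1 CPM in mtD2- and at 50.1, 64.3, 68.5 and 55.6 CPM in mtD2+. Every mtD2+ library lay above every mtD2- library. Slc26a11 rose 1.94-fold (log2 fold change 0.96, SE 0.18, adjusted p = 0.0198), and the call held without the block (0.94, adjusted p = 0.033) and without mouse 1 (1.14, adjusted p = 0.0343). It was lost without mouse 2 (0.77, adjusted p = 0.072), mouse 3 (0.99, adjusted p = 0.088) or mouse 4 (0.95, adjusted p = 0.0557).

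The sulfate carrier Slc26a1, of the same family, was also above in every library, at 4.04, 7.11, 6.94 and 6.12 CPM in mtD2- and 9.53, 8.53, 11.5 and 16.3 CPM in mtD2+, and did not pass (0.91, SE 0.28, adjusted p = 0.100). All 4 members of the Slc26 family had positive values, from 0.05 to 0.96, where 4445 of the 9761 tested genes with at least 5 CPM were positive. The other 2, named outside the rule for their family, were Slc26a2 (0.14, SE 0.16, adjusted p = 0.640) and Slc26a6 (0.05, SE 0.36, adjusted p = 0.955). Slc26a6 was lower in mtD2+ in 3 of 4 mice. Slc9a9, which exchanges sodium for protons in endosomes, stood at 304, 292, 267 and 190.5 CPM in mtD2- and 359, 366, 377 and 325 CPM in mtD2+. The groups did not overlap, and it missed the threshold (0.46, SE 0.12, adjusted p = 0.0608). Slc8b1, the sodium-calcium exchanger of mitochondria, had 100.02 ± 16.1 and 111 ± 10.9 CPM (0.16, SE 0.15, adjusted p = 0.569).

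Of the 21 carriers of metals and heme none passed, and the median was 0.02, with 11 positive and 10 negative. An unadjusted p under 0.05 was reached by 1 of them (4.76%), the zinc importer Slc39a3, at 9.39, 15.9, 21.0 and 9.89 CPM in mtD2- and 7.61, 7.94, 6.73 and 5.71 CPM in mtD2+. All mtD2+ values lay below all mtD2- values (−0.93, SE 0.27, adjusted p = 0.0844). Slc39a1, the most abundant zinc importer per length, ranged from 127 to 251 CPM in mtD2- and from 98.9 to 165 in mtD2+ (−0.26, SE 0.24, adjusted p = 0.575), with the highest mtD2- and the lowest mtD2+ value both in mouse 4. The zinc exporter Slc30a4 had −0.64 (SE 0.31, adjusted p = 0.255), the magnesium carrier Slc41a2 0.35 (SE 0.17, adjusted p = 0.273), and Slc31a2, of the copper carriers, 0.00 (SE 0.17). Slc39a7 shares 80.1% of its exon bases with a predicted gene on the same strand, and its count is uncertain for that reason.

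The 14 carriers of nucleosides, vitamins, choline and urea included 1 that rose and 1 that fell, and 12 did not pass. An unadjusted p under 0.05 was reached by 10 of the 14 (71.4%), 3 higher and 7 lower, the highest share of any substrate group. Of all tested genes with at least 5 CPM 28.4% reached it. The one that fell, Slc43a3 (ENSMUSG00000027074), encodes a carrier of purine bases and lies on the plus strand of chromosome 2 from 84936579 to 84958509. It stood at 21.8, 29.6, 18.1 and 47.2 CPM in mtD2- and at 7.52, 12.2, 8.37 and 12.1 CPM in mtD2+. All mtD2+ values lay below all mtD2- values, and mouse 4 was the highest of mtD2-. Slc43a3 fell 2.78-fold, from 29.2 ± 13.0 to 10.04 ± 2.45 CPM (log2 fold change −1.47, SE 0.20, adjusted p = 0.00589). The call held without the block (−1.54, adjusted p = 0.0327) and without any 1 mouse (−1.59 to −1.31). It is the only carrier of the 126 that held under both. The summed level of the 12 fibroblast and precursor markers was also lower in mtD2+ in each mouse and, like Slc43a3, highest in the mtD2- library of mouse 4, and the part of these markers in this result was not tested.

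Slc23a3 (ENSMUSG00000026205), of the family of the vitamin C carriers, lies on the minus strand of chromosome 1 from 75125541 to 75133890. It stood at 13.3, 5.94, 9.46 and 9.70 CPM in mtD2- and at 18.7, 16.1, 22.5 and 37.1 CPM in mtD2+. The groups did not overlap, and mouse 4 gave the highest mtD2+ value. Slc23a3 rose 2.42-fold (log2 fold change 1.28, SE 0.25, adjusted p = 0.0242). The call held without mouse 1 (1.54, adjusted p = 0.0339) and was lost without mouse 2 (1.22, adjusted p = 0.0933), mouse 3 (1.29, adjusted p = 0.0965) or mouse 4 (1.06, adjusted p = 0.0754), and without the block (1.29, adjusted p = 0.0597). Slc23a2, the vitamin C carrier of most cells, had 67.2, 91.6, 52.3 and 100.2 CPM in mtD2- and 95.5, 104, 104 and 132 CPM in mtD2+ (0.52, SE 0.14, adjusted p = 0.0714), higher in all 4 mice, and it is named outside the rule as a relative of Slc23a3.

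The choline carrier-like gene Slc44a2 stood at 20.0, 17.3, 23.1 and 24.2 CPM in mtD2- and 10.49, 12.7, 7.93 and 15.2 CPM in mtD2+. The groups did not overlap, and it missed the threshold (−0.90, SE 0.23, adjusted p = 0.0560). Slc44a1, the choline carrier of the same family and named for it, did not overlap either (−0.53, SE 0.15, adjusted p = 0.0774). The nucleoside carriers had values of both signs, with the equilibrative Slc29a1 at 194 ± 16.9 and 213 ± 22.01 CPM (0.14, SE 0.11, adjusted p = 0.505) and the sodium-coupled Slc28a2 at 67.5 ± 8.23 and 86.6 ± 9.16 CPM (0.36, SE 0.12, adjusted p = 0.112). The lysosomal Slc29a3, named outside the rule for its substrate, was lower in all 4 mice without overlap, at 87.4 ± 5.82 and 75.0 ± 6.89 CPM (−0.22, SE 0.11, adjusted p = 0.278). In 6 of the 14 genes every mtD2+ value lay below every mtD2- value, and in 1 above, where of the 9761 tested genes with at least 5 CPM 740 lay below and 697 above. In CPM of library totals the group's summed level was lower in mtD2+ in all 4 mice, at 711 ± 39.5 against 676 ± 38.3 CPM. These sums are not scaled by TMM, whose factors in mice 1 to 4 were 1.03, 1.07, 1.06 and 0.922 in mtD2-. In mtD2+ the factors were 0.982, 0.982, 0.998 and 0.959, so that the count of mice depends on the scaling.

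The 20 carriers of nucleotide sugars and acetyl-CoA, 19 of them of the Slc35 family of the Golgi and endoplasmic reticulum, had the lowest median of all groups with −0.36, and 15 of 20 were negative. Their summed level was 683, 725, 717 and 667 CPM of library totals in mtD2- and 579, 630.2, 554 and 603 CPM in mtD2+. Every mtD2+ sum lay below every mtD2- sum. The median difference within a mouse was −0.23, −0.21, −0.22 and −0.37 in mice 1 to 4, 7 genes were lower in every mouse and 2 were higher in every mouse. An unadjusted p under 0.05 was reached by 10 (50%), 8 lower and 2 higher, and 1 gene in each direction passed the test. Of the 9761 tested genes with at least 5 CPM, 1912 were lower and 1640 higher in every mouse. Among those genes 28.4% reached an unadjusted p under 0.05 and 54.5% were negative. The median stayed negative under every setting tried, from −0.42 with library totals alone to −0.28 without mouse 3. Fibroblast and precursor markers moved the same way, at 826 to 1275 and 229 to 284 CPM, as did the monocyte markers, and their part in this result was not tested.

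Slc35c2 (ENSMUSG00000017664), a Golgi protein linked to fucosylation, lies on the minus strand of chromosome 2 from 165276554 to 165287869. It stood at 61.1, 66.3, 50.3 and 73.7 CPM in mtD2- and at 38.2, 42.6, 36.6 and 47.1 CPM in mtD2+. The groups did not overlap, and mouse 4 was highest and mouse 3 lowest in both. Slc35c2 fell 1.52-fold (log2 fold change −0.60, SE 0.12, adjusted p = 0.0233), with a call that was lost without mouse 1 (−0.58, adjusted p = 0.118), mouse 2 (−0.59, adjusted p = 0.0835), mouse 3 (−0.64, adjusted p = 0.0773) or mouse 4 (−0.59, adjusted p = 0.0581), and without the block (−0.61, adjusted p = 0.0685). Slc35c1, the GDP-fucose carrier of the Golgi, had 23.7, 30.5, 47.7 and 37.4 CPM in mtD2- and 20.7, 19.7, 20.6 and 26.5 CPM in mtD2+ (−0.63, SE 0.19, adjusted p = 0.0868), lower in all 4 mice with overlapping groups. Slc35b1, which exchanges ATP and ADP across the endoplasmic reticulum, did not overlap, at 70.4 ± 6.88 and 56.0 ± 3.40 CPM (−0.33, SE 0.11, adjusted p = 0.136). Of carriers named for the sugar they bring in and outside the rule, those of UDP-galactose (Slc35a2), CMP-sialic acid (Slc35a1) and UDP-xylose and UDP-N-acetylglucosamine (Slc35b4) had −0.51 (SE 0.16, adjusted p = 0.109), −0.55 (SE 0.24, adjusted p = 0.216) and −0.61 (SE 0.18, adjusted p = 0.0903).

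Slc35f5 (ENSMUSG00000026342), whose substrate is not assigned, lies on the plus strand of chromosome 1 from 125560595 to 125595820 and moved against the median of its group. It stood at 41.9, 30.4, 36.2 and 48.1 CPM in mtD2- and at 54.5, 50.7, 49.6 and 91.7 CPM in mtD2+. The groups did not overlap, and the mtD2+ library of mouse 4 stood far above the other 3. Slc35f5 rose 1.54-fold (log2 fold change 0.63, SE 0.14, adjusted p = 0.0355). The call was lost without mouse 1 (0.71, adjusted p = 0.0856), mouse 2 (0.59, adjusted p = 0.113), mouse 3 (0.69, adjusted p = 0.0958) or mouse 4 (0.52, adjusted p = 0.108), without the block (0.65, adjusted p = 0.154) and with library totals alone (0.57, adjusted p = 0.0619). Slc35d1, which brings UDP-glucuronic acid into the endoplasmic reticulum and is named outside the rule, had the highest value of the group without passing (0.70, SE 0.25, adjusted p = 0.145). Slc35f6, the most abundant of the group per length at 34.5 ± 2.51 and 36.6 ± 4.10 RPKM, had 0.14 (SE 0.11, adjusted p = 0.485).

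**Figure D4:**
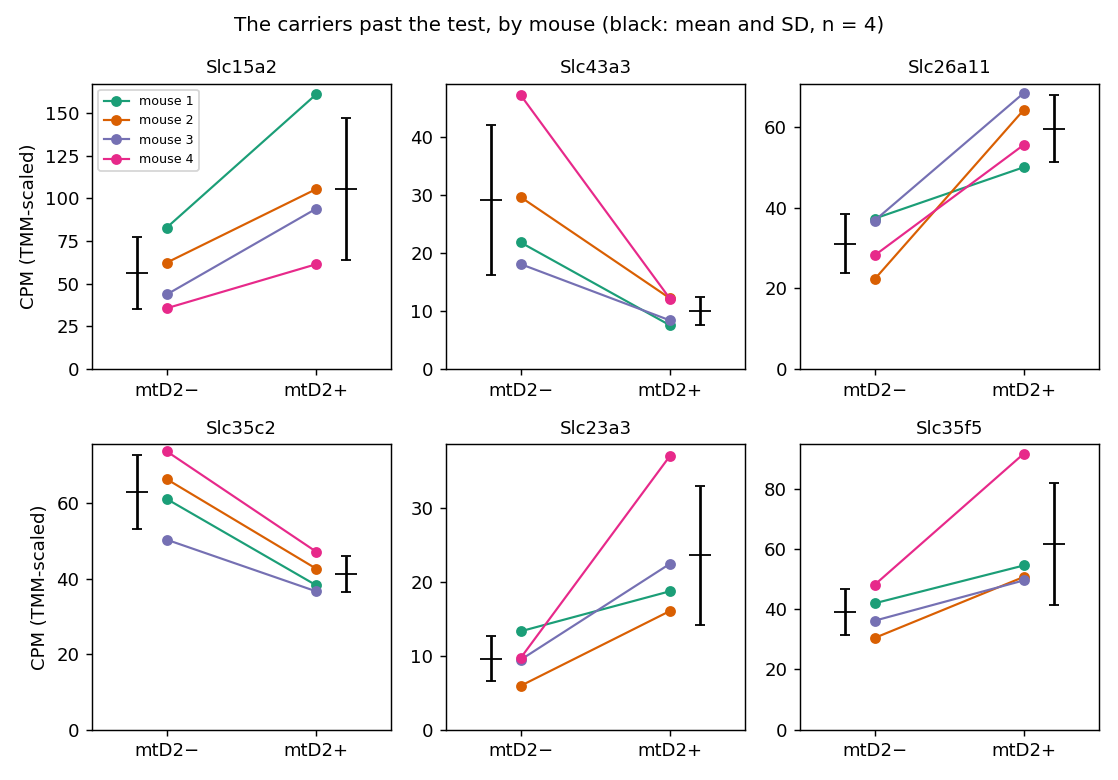
TMM-scaled CPM (vertical axes, from 0) of the 6 carriers that passed the test in both populations, with 1 coloured line a mouse and the mean and SD (n = 4) in black. The lines of all 4 mice go up for Slc15a2, Slc26a11, Slc23a3 and Slc35f5 and down for Slc43a3 and Slc35c2, and only Slc15a2 has overlapping groups.

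**Figure D5:**
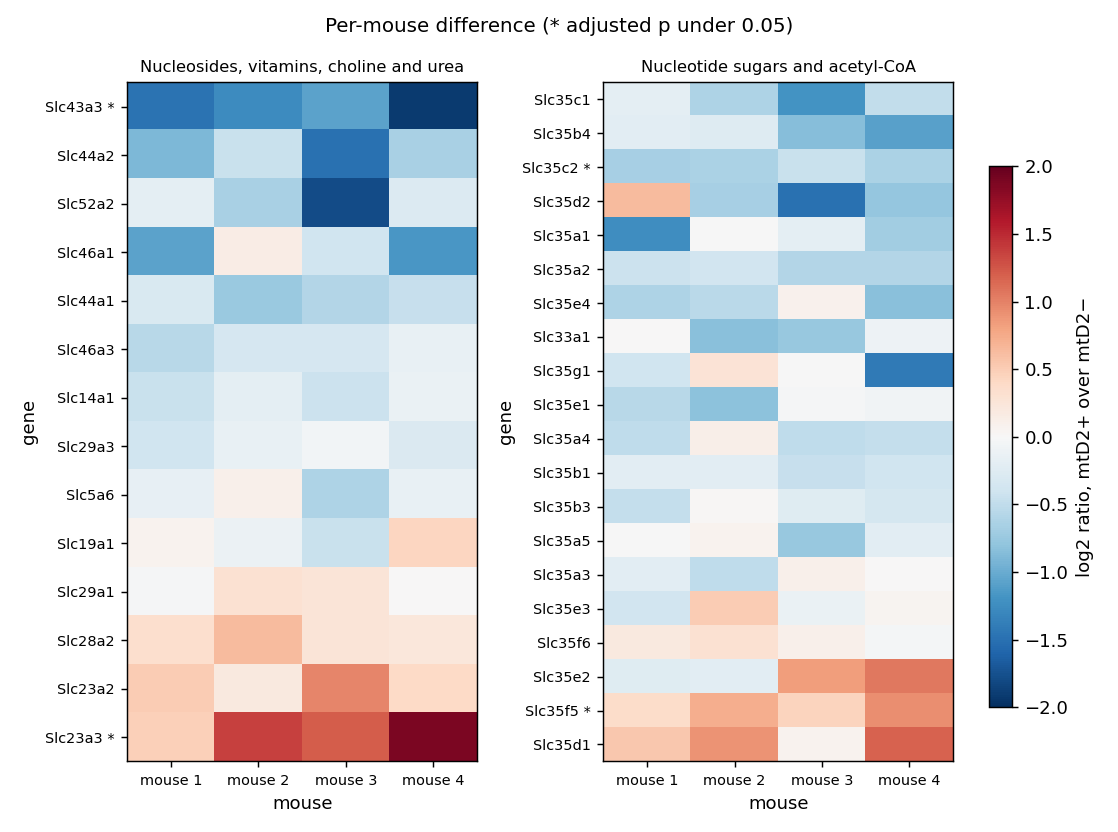
Colours give the log2 ratio of mtD2+ over mtD2− within each mouse (columns) for the 14 carriers of nucleosides, vitamins, choline and urea and the 20 of nucleotide sugars and acetyl-CoA (one gene a line, ordered by fold change, with a star for those that passed the test). Blue fills most of both panels, and Slc23a3 and Slc35f5 at the lower end are red in all 4 mice.

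Of the 17 carriers of organic ions, carboxylates and fatty acids none passed, with a median of 0.08. The ketone body carrier Slc16a6 stood at 53.0, 69.9, 51.8 and 52.9 CPM in mtD2- and 99.7, 75.2, 95.8 and 67.4 CPM in mtD2+, higher in all 4 mice with overlapping groups (0.56, SE 0.16, adjusted p = 0.0775). Its exons share 23.5% of their bases with other features, mainly Amz2 on the other strand (0.51, adjusted p = 0.0665), and reads of Slc16a6 and Amz2 cannot be told apart if strand was not used. Of its family, the pyruvate and lactate carrier Slc16a7 had 0.42 (SE 0.17, adjusted p = 0.181) and Slc16a13 −0.65 (SE 0.25, adjusted p = 0.169). The fatty acid carrier Slc27a1, at 28.4 ± 7.23 and 25.4 ± 5.71 RPKM the most abundant of the group, had −0.10 (SE 0.12, adjusted p = 0.692). The carnitine importer Slc22a5 was the only one whose groups did not overlap, and is named for that (10.3, 13.9, 11.4 and 13.8 CPM in mtD2- against 24.3, 13.9, 17.7 and 18.4 in mtD2+, 0.57, SE 0.24, adjusted p = 0.198), with the values of mouse 2 equal to 3 digits.

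None of the 10 carriers of sugars and sugar phosphates passed, with a median of 0.05. Slc37a2, a sugar phosphate exchanger, stood at 77.7, 66.2, 48.8 and 78.9 CPM in mtD2- and 91.7, 91.4, 70.0 and 96.6 CPM in mtD2+ (0.38, SE 0.11, adjusted p = 0.0851). It was higher in all 4 mice, and mouse 3 was lowest in both populations. Slc50a1, the most abundant of the group per length, stood at 63.7 ± 8.72 and 58.2 ± 2.44 CPM (−0.12, SE 0.12, adjusted p = 0.588). The glucose carriers Slc2a3 (−0.36, SE 0.27, adjusted p = 0.478) and Slc2a6 (0.25, SE 0.20, adjusted p = 0.499) lay on either side of 0. Of the 4 proteins named after a carrier none passed. Slc9a3r1, a scaffold of membrane proteins, had 68.3 ± 8.53 and 55.1 ± 8.38 CPM (−0.31, SE 0.11, adjusted p = 0.147), Slc4a1ap −0.46 (SE 0.20, adjusted p = 0.210) and Slc7a6os 0.07 (SE 0.22, adjusted p = 0.887).

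Other parts of the transport machinery were read from lists chosen by function. Of 28 carriers without an Slc symbol 25 were tested, and Ctns, the lysosomal cystine exporter, rose, from 119, 96.8, 95.7 and 156 CPM in mtD2- to 188, 161, 138 and 307 CPM in mtD2+. It was higher in all 4 mice with overlapping groups (log2 fold change 0.72, SE 0.11, adjusted p = 0.0101), and the call was lost without mouse 1 (0.75, adjusted p = 0.0553), mouse 2 (0.72, adjusted p = 0.0501) or the block (0.76, adjusted p = 0.143). Mfsd1, a lysosomal dipeptide carrier, had 0.39 (SE 0.11, adjusted p = 0.0834), and the list's median was 0.05. Of 12 pumps and chaperones on which carriers depend, Slc3a2 among them, all were tested, with a median of −0.36 and 9 negative. Nptn, a partner of monocarboxylate carriers, had −0.45 (SE 0.11, adjusted p = 0.0551).

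Among the 13 carriers left out by name 4 rose and none fell, and of the 42 under 5 CPM that could be tested 1 rose and none fell, beside 3.72% of all tested genes that rose and 1.78% that fell. No test of the difference between these groups and the 126 was made.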

How the data were processed

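RNA of sorted macrophages from 4 mice was sequenced, 1 mtD2- and 1 mtD2+ library a mouse. The submitters' processing notes name bcl2fastq, STAR 2.0.4b, Subread with featureCounts 1.45 and the build GRCm38, and no options. The deposited tables hold whole-number counts per gene, the deposited CPM is scaled to the sum of each library, and the deposited RPKM further divides by the length in kilobases. Symbols came from the GENCODE M21 annotation (40340 identifiers with a symbol, 1048 without).

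The test on the counts of all 41388 genes was that of edgeR 4.0.16 under R 4.3.3 (quasi-likelihood F test, TMM factors, mouse as a block, then group). The expression filter (minimum count 10, minimum total 15, proportion 0.7) left 13933 genes, of which 767 passed 0.05 after Benjamini-Hochberg adjustment. The common biological coefficient of variation was 33.7%. All adjusted p-values are from this test unless another setting is named. Each SE was taken from the log2 fold change and its F value, and the script was tested on simulated data. Printed CPM per gene is scaled by TMM, while sums over genes, markers included, use deposited CPM. Library totals of 18462287 to 27464399 set the counting error.

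The mouse named in the labels gives the pairs. Deviations from the group means correlated within a mouse at 0.039, 0.070, 0.145 and 0.251 over genes in mice 1 to 4. Between different mice the correlations ran from −0.190 to 0.058. The highest, of mtD2- in mouse 1 with mtD2+ in mouse 3, lay above the 0.039 within mouse 1.

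The carriers, their substrate groups and the lists were chosen with earlier results of these data known. Named genes are the called members, in each group the 2 of highest RPKM and the 3 of smallest p, the 3 on either side of the threshold, the sort markers, and of the further lists the called genes and the 2 of smallest p. A gene of the further lists that the rule takes is not reported here. Other genes named outside that rule are said to be so, and were chosen after their values were seen. Outside it too are the markers Mertk, Ccr2 and Cd79b, which passed, the marker Ly6g, and the overlap partners Tmem132a and Amz2. Alternatives were no block, 3 scalings, 2 filters, the Wald test of DESeq2 1.42.0, voom of limma 3.58.1, other member thresholds and leaving out each mouse.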

Additional observations from a re-analysis of the deposited data

Results flagged for a closer look

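In 74 groups of 4 libraries, those of the 37 carriers named by rule, the highest or lowest library was set against the other 3, and 9 stood apart by Dixon's criterion at its critical value for 4 libraries, where chance alone marks about 1 group in 20. In the mtD2+ library of mouse 4, Slc35f5 stood at 91.7 CPM against 49.6 to 54.5 in the other 3, Slc35c1 at 26.5 against 19.7 to 20.7, and Slc22a17 at 8.94 against 4.27 to 5.01. Slc39a7 was low there, at 4.87 against 6.38 to 6.53 CPM. In the mtD2- library of mouse 4, Slc3a2 stood at 589 against 377 to 397 CPM. In the mtD2- library of mouse 3, Slc41a2 stood at 19.4 against 31.5 to 33.2 CPM. Mouse 2 was high for Slc16a6 (69.9 against 51.8 to 53.0 CPM) and Slc7a6os (21.6 against 17.8 to 18.4 CPM) in mtD2- and for Slc29a1 (246 against 201 to 204 CPM) in mtD2+. Of these genes only Slc35f5 was called, and its call was lost without mouse 4 as without each other mouse. Slc3a2 was called only without mouse 4 or by DESeq2.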

How the results depend on the processing

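With 4 carriers called higher and 2 lower as reported, the fit without the replicate block called 1 and 1. Without a filter on low counts 7 were higher, with a filter at a mean of 5 CPM 10 were higher, DESeq2 called 13 higher and 7 lower, and limma voom called 4 lower. In the order named, these fits called 1051 of 24020, 1242 of 9761, 1816 of 13933 and 1066 of 13933 genes over the whole table. The main fit called 767 of 13933, so that calls among all genes rose as well. Leaving out each mouse in turn gave 1 to 3 higher and 1 to 1 lower. All 6 calls were among those of RLE and upper quartile scaling, both other filters, DESeq2 and voom, and 5 among those with library totals alone, where Slc35f5 was lost. Slc43a3 alone was called in every fit that was run. The median log2 fold change of the 126 carriers was −0.07 to −0.01 when a mouse was left out and 0.01 with upper quartile scaling. A member threshold of 1 CPM takes 152 carriers and 1 of 10 CPM takes 103, with counts of calls within 1.5 times of those reported. No result changed direction where it was called, and no alternative was added later. Each library held 18462287 to 27464399 counts, and the carriers nearest the threshold had means of 5.56 to 5.72 CPM, where counting error adds most to the spread.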
